A study of Homo sapiens with 4 samples.

Results

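The genes of glycolysis and of the hypoxia response were followed in A549 cells with and without overexpression of USP12. They were chosen by name, as the rows of the count files that carry one of 37 symbols, out of 50868 genes in the files. The symbols were listed with earlier results of these data known, so shares of members beside all genes are descriptions only. A549 is a human lung adenocarcinoma line, and the study asked how overexpression of USP12, a deubiquitinase, alters gene expression in these cells. The data were messenger RNA counts of 4 libraries, 2 labelled control (A549-CON) and 2 labelled USP12-overexpressed (A549-USP12). The methods describe USP12 carried on a lentiviral pLVX vector and control cells with the empty vector. No labels or methods state an oxygen tension, a glucose level, a cell density or a harvest time, nor that the 2 libraries of a group came from separate cultures, so the p-values measure the spread between these libraries, which may be technical. Of the 37 members, 23 act in glucose uptake, glycolysis and the handling of its end product, and 14 belong to the hypoxia response.

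In glycolysis, glucose is taken up, phosphorylated, split and oxidised to pyruvate, which lactate dehydrogenase converts to lactate and monocarboxylate transporters export. Hypoxia-inducible factors are transcription factors whose alpha subunit is hydroxylated by oxygen-dependent prolyl hydroxylases, bound by VHL and degraded. When oxygen is scarce the subunit persists, pairs with ARNT and binds DNA at the core letters ACGTG or GCGTG. Many glycolytic enzymes, carbonic anhydrases, angiogenic factors and the prolyl hydroxylases themselves are among the targets. Tumour cells such as A549 often run glycolysis also with oxygen present.

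The libraries held between 14280081 and 16305356 counts. Levels are given as CPM, each count relative to the library total after adjustment by TMM factors from edgeR, and 3 counts, taken as the floor, corresponded to between 0.166 and 0.227 CPM, which covers counting error only. USP12 itself was at 15.2 and 34.4 CPM in controls and at 1745 and 2235 CPM with USP12, as the labels state. All 6 epithelial markers and all 5 genes typical of A549 were above the floor in every library. Of 10 markers of immune, endothelial and stromal cells 5 were at or below it throughout, CD3E and DCN among them at 0. CD68, COL1A1 and PECAM1 were above it in every library. COL1A1 had 172 and 47 counts in controls and 262 and 211 with USP12, and PECAM1 had 68 and 56 against 4 and 14. The summed level of those 10 markers lay at 101 and 54.2 CPM in controls and at 83.4 and 63.8 CPM with USP12, and most of it was CD68. Before any comparison, the control libraries stood apart from each other. The SD of the log2 ratio across 15222 tested genes was 1.32 for the pair of controls and 0.618 for the USP12 pair. Against the USP12 libraries it was 1.28 and 1.31 for control replicate 1 and 1.1 and 1.01 for control replicate 2. These values do not tell which control is the typical one. The heading of the count column of control replicate 1 starts with a different number string from the other 3, and what that string stands for is not stated. Many values are also given without control replicate 1 and some without control replicate 2. The plot of fold changes by control library shows both for each member except HK2. Mitochondrially encoded transcripts took 13.8% and 14.5% of the control counts and 25.3% and 23.2% of the USP12 counts, and the part of this in the results was not tested.

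Of the members, 6 met a criterion of an unadjusted p of 0.05 or less with a log2 fold change of at least 1 in size. The study gives these limits for lower genes without saying whether p was adjusted, and they were applied here to the unadjusted p and in both directions. HK2, ALDOC, SLC16A3, CA9 and NDRG1 were lower in USP12 cells, and PFKFB3 was higher. These were 5 of 37 members lower (13.5%), beside 4.41% of all tested genes, and 1 higher (2.7%), beside 2.92%. All 37 members passed the filter on low counts, HK2 through the control libraries alone. In such bulk libraries, fewer cells expressing a gene and less RNA per cell cannot be told apart. The test was edgeR's quasi-likelihood test, and after Benjamini-Hochberg adjustment over all tested genes no member was below 0.05 in either direction (0 lower and 0 higher), as no gene in the table was (0% of 15222). An unadjusted p under 0.05 was found for 7 of the 37 members, beside 1155 of 15222 tested genes (7.59%). The additional member was SLC2A1. The median log2 fold change was -0.53 over the members, -0.54 over the glycolysis genes and -0.43 over the hypoxia response genes, beside -0.06 over all tested genes. Without control replicate 1 only 1 control library is left. The p-values of that fit hold no spread between controls, so only its fold changes are given. The log2 fold change was then -2.23 for ALDOC, -2.10 for CA9, 1.69 for PFKFB3, -0.75 for SLC16A3 and -0.98 for NDRG1. Outside the 6, it was over 1 in size for SLC2A1 (-1.10), PDK1 (-1.12), VEGFA (-1.16), PFKFB4 (1.54) and ANKRD37 (2.11), which was near the floor. In that fit the median over the members was -0.07 and that of the glycolysis genes was 0.01, whereas the hypoxia response genes were at -0.40.

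**Figure D1:**
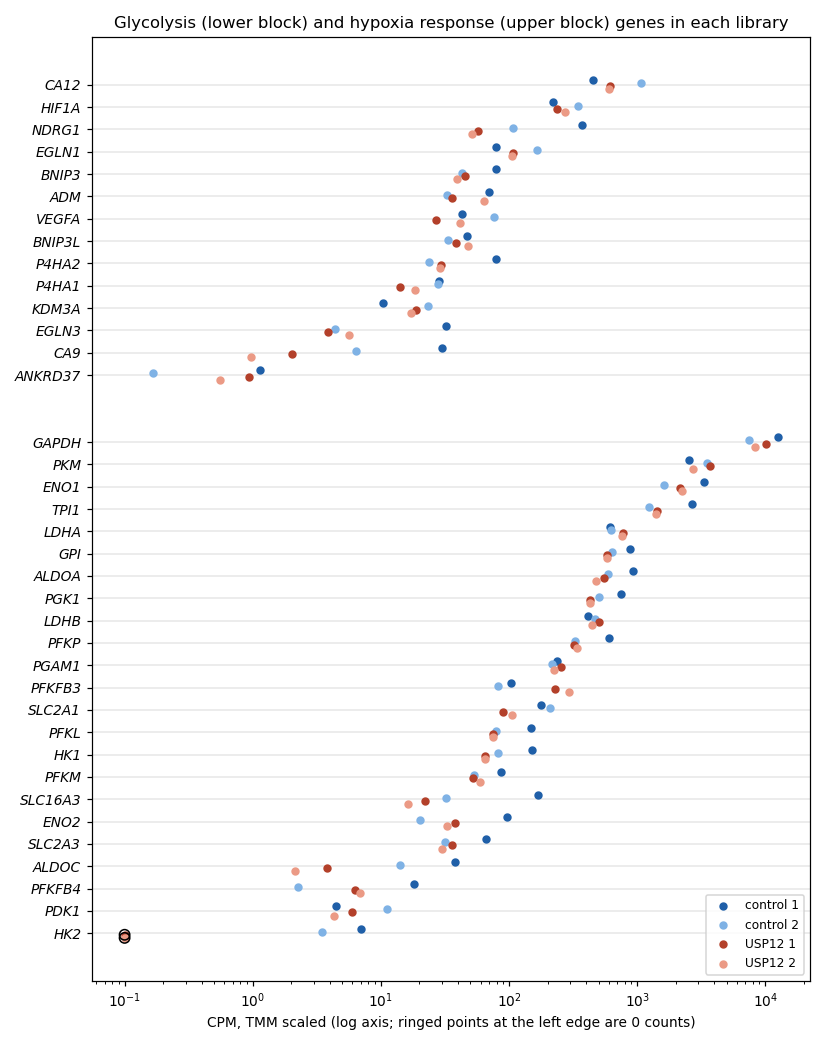
Level of each of the 37 members in each library, in CPM on a log axis, with hypoxia response genes in the upper block and glycolysis genes in the lower block. Blue points are the control libraries and red points the USP12 libraries, and the ringed points are HK2 at 0 counts in both USP12 libraries. Control 1 lies to the right of the other libraries for ENO2, EGLN3, P4HA2, SLC16A3 and CA9.

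HK2 (ENSG00000159399), the hexokinase that is raised in many tumours and binds the outer mitochondrial membrane, had counts only in controls. It had 92 and 63 counts in controls, or 6.96 and 3.49 CPM, and 0 counts in both USP12 libraries. Set against the floor of 3 counts in each USP12 library, this was at least 24.7-fold lower, and at least 16.5-fold lower against control replicate 2 alone (adjusted p = 0.182 by the edgeR quasi-likelihood test). Its GRCh38 position is chr2:74834127-74893359 (plus strand), and no exon of another GENCODE gene overlaps its exons. HK1 (ENSG00000156515), the hexokinase that most tissues use, was at 151 and 81.6 CPM in controls and at 64.4 and 65.0 CPM with USP12. The log2 fold change was -0.85 (standard error, SE, 0.43, adjusted p = 0.787 from the same test), and -0.33 without control replicate 1. Both values with USP12 lay under both controls in HK1, but by less than the distance between the control libraries. Per kilobase of exon, HK2 made up 5.08% and 4.74% of the summed level of HK1 and HK2 in controls, and HK1 the rest. That sum leaves out HKDC1, a further hexokinase gene that is not a member. HKDC1 was at 54.6 and 125 CPM in controls and at 65.9 and 76.7 CPM with USP12, where the groups overlapped.

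PFKFB3 (ENSG00000170525) makes and removes the sugar bisphosphate that activates phosphofructokinase, with the balance strongly towards making it. It was the only member to meet the criterion upwards. Its level was 103 and 81.4 CPM in controls and 227 and 296 CPM with USP12, so both USP12 libraries lay above both controls. The log2 fold change was 1.50 (SE 0.37, adjusted p = 0.315 by the quasi-likelihood test), 1.69 against control replicate 2 alone and 1.37 against control replicate 1 alone. PFKFB4, its paralogue, differed chiefly between the controls, with 18.0 and 2.27 CPM, and lay between them in USP12 cells, at 6.26 and 6.93 CPM. This gave a log2 fold change of -0.62 (SE 0.92, adjusted p = 0.962), and 1.54 without control replicate 1. On the per-kilobase scale, PFKFB3 held 85.1% and 97.3% of the level of this pair in controls and 97.3% and 97.7% with USP12.

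ALDOC (ENSG00000109107), the brain-type aldolase, had 503 and 252 counts in controls and 53 and 31 with USP12, the latter 3.82 and 2.15 CPM. Its log2 fold change was -3.12 (SE 0.69, adjusted p = 0.286 by the quasi-likelihood test), and -2.23 against control replicate 2 alone. Both values with USP12 lay under both controls, which themselves differed by 1.44 on the log2 scale. ALDOA, the main aldolase of muscle and of most tumour cells, was at 926 and 595 CPM in controls and at 554 and 478 CPM with USP12 (log2 fold change -0.56, SE 0.36, adjusted p = 0.864). That value was -0.21 without control replicate 1 and -0.28 with an offset for GC content. The share of ALDOC in the aldolase level per kilobase was 5.69% and 3.33% in controls and 1.00% and 0.655% with USP12.

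SLC16A3 (ENSG00000141526) encodes the lactate exporter MCT4. Its level was 167 and 32.3 CPM in controls and 22.1 and 16.3 CPM with USP12. The groups did not overlap, but control replicate 1 was above the rest, and the log2 fold change of -2.37 (SE 0.78, adjusted p = 0.493 by the quasi-likelihood test) became -0.75 without it. SLC2A1 (ENSG00000117394), which encodes the widespread glucose transporter GLUT1, showed the opposite kind of pattern, with controls close together at 179 and 209 CPM and USP12 libraries at 89.5 and 105 CPM. The log2 fold change was -0.99 (SE 0.35, unadjusted p = 0.0276, adjusted p = 0.528 in edgeR), just short of the fold limit, and it was -1.10 without control replicate 1. SLC2A3, the high-affinity transporter GLUT3, was at 65.7 and 31.9 CPM in controls and at 35.6 and 30.2 CPM with USP12, where the groups overlapped. Summed per kilobase, the pair stood at 36.1 and 36.0 in controls and at 18.4 and 20.1 with USP12.

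CA9 (ENSG00000107159), a cell-surface carbonic anhydrase and one of the most oxygen-sensitive transcripts known, had 395 and 116 counts in controls and 28 and 14 with USP12. In CPM this was 29.9 and 6.43 against 2.02 and 0.970. The log2 fold change was -3.60 (SE 0.91, adjusted p = 0.324 by the quasi-likelihood test), and -2.10 against control replicate 2 alone. CA12, the related enzyme with a broader epithelial expression, followed another order, with 453 and 1063 CPM in controls and 611 and 601 CPM with USP12 (log2 fold change -0.32, SE 0.46, adjusted p = 0.959), or -0.81 without control replicate 1 and 0.45 without control replicate 2. NDRG1 (ENSG00000104419), a stress-response gene induced by hypoxia and by iron chelation, was at 371 and 107 CPM in controls and at 57.4 and 51.3 CPM with USP12. This gave a log2 fold change of -2.14 (SE 0.62, adjusted p = 0.413), and -0.98 without control replicate 1. In CA9 and NDRG1 both USP12 libraries lay below both controls.

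**Figure D2:**
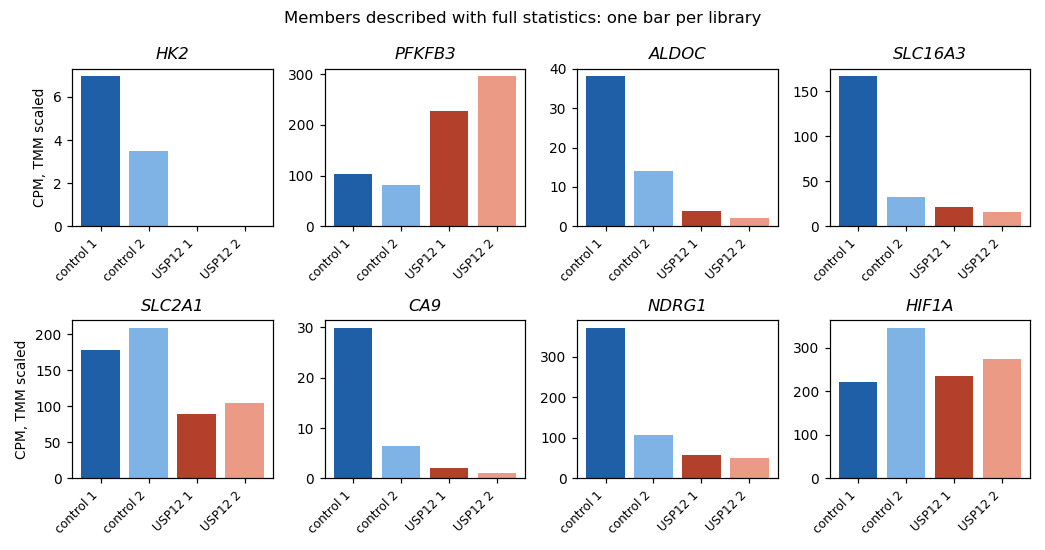
Level in CPM, one bar per library, for the 6 members that met the criterion and for SLC2A1 and HIF1A; each panel has its own axis, which starts at 0. PFKFB3 reached 227 and 296 CPM with USP12, HK2 had no bar in either USP12 library, and control 1 was the highest bar for SLC16A3, CA9, NDRG1, ALDOC and HK2.

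To show the letters that HIF could bind near the members that met the criterion, the bases before their annotated starts are given for those with a RefSeq promoter entry (GRCh38.p14), without annotated exons and 5′ to 3′ on the strand of the gene. Only the first listed entry of a gene was used, and other annotated starts were not examined. Capitals mark the HIF core letters ACGTG and GCGTG and their reverse complements CACGT and CACGC. The stretches are chr2:74833988-74834126 on the plus strand for HK2, chr10:6144671-6144920 on the plus strand for PFKFB3, chr17:28576949-28577145 on the minus strand for ALDOC and chr17:82228185-82228396 on the plus strand for SLC16A3. For CA9 an exon is annotated over the matched letters, and only the 30 bases next to the start are given (chr9:35673898-35673927, plus strand).
HK2: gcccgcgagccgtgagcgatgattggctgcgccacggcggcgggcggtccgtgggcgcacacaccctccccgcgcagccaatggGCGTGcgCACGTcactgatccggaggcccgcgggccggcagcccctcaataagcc
PFKFB3: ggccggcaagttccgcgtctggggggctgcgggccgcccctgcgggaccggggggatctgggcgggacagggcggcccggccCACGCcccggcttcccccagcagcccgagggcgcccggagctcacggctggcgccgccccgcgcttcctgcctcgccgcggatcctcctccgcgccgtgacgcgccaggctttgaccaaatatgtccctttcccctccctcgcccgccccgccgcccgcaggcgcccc
ALDOC: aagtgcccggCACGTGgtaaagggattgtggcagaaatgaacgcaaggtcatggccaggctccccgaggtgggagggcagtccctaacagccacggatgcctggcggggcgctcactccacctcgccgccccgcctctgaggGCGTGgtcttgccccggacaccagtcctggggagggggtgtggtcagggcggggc
SLC16A3: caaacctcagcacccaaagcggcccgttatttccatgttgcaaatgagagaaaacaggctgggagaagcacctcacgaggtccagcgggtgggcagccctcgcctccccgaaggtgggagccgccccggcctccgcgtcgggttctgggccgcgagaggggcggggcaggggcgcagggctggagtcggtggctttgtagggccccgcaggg
CA9: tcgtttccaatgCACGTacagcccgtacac

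The HK2 stretch held a GCGTG and a CACGT close to each other near the start, and that of CA9 held CACGT. In ALDOC the palindrome CACGTG, which matches on both strands and is also the E-box, stood near the far end. PFKFB3 had a single CACGC, and SLC16A3 had no match in the window. The bases after the start occurred in a GENCODE transcript of the gene for 29 of the 33 member promoters, but not for PFKFB3. That window lies inside the annotated SLC16A3 gene (chr17:82217934-82261129), so a start further upstream was not examined. Of the 33 members with a promoter entry, 21 (63.6%) held ACGTG or GCGTG on either strand in the 250 bases before the start, beside 43.1% of 27305 RefSeq promoters. ACGTG alone was found in 13 of the 33 (39.4%), beside 18.7% of all. SLC2A3, VEGFA, NDRG1 and BNIP3L had no entry. Such matches are descriptions of these letters and do not show binding. Members were chosen for pathways that hold many HIF targets, and the promoters were not matched for base content. The shares are therefore descriptions only. ALDOC, which met the criterion, and LDHA, which did not, both had 5 matches, counted on each strand.

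GPI and the phosphofructokinases had log2 fold changes between -0.60 and -0.32. Phosphoglucose isomerase (GPI), which follows hexokinase, was at 887 and 632 CPM in controls and at 582 and 584 CPM with USP12, a log2 fold change of -0.38, or -0.12 without control replicate 1. Of the 3 phosphofructokinase subunits, which together set the committed step, the platelet type PFKP made up between 72.3% and 73.1% of the level per kilobase in the 4 libraries. PFKP was at 604 and 329 CPM in controls and at 321 and 339 CPM with USP12 (log2 fold change -0.50, SE 0.40, adjusted p = 0.911 in edgeR). PFKL, the liver type, was at 149 and 78.9 CPM against 75.5 and 75.0 (-0.60, SE 0.43, adjusted p = 0.889), and PFKM, the muscle type, at 86.2 and 53.1 CPM against 52.0 and 59.6 (-0.32, SE 0.41, adjusted p = 0.947). Without control replicate 1 these 3 log2 fold changes were 0.01, -0.07 and 0.07.

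In the later steps, the most abundant member was GAPDH, which oxidises the triose phosphate, with 12460 and 7522 CPM in controls and 10170 and 8383 CPM with USP12 (log2 fold change -0.11). Its direction turned, to 0.30 without control replicate 1 and to 0.05 with the GC content offset. Triose phosphate isomerase (TPI1) was at 2680 and 1239 CPM in controls and at 1417 and 1401 CPM with USP12, and ENO1, the ubiquitous enolase, at 3353 and 1612 CPM against 2172 and 2255. For both, the USP12 libraries lay between the control libraries. The neuronal enolase ENO2 had the same order with wider distances, at 96.9 and 20.2 CPM in controls and 37.7 and 32.6 CPM with USP12. Phosphoglycerate kinase (PGK1), the first step that yields ATP, was at 748 and 508 CPM against 431 and 432 CPM (log2 fold change -0.54, SE 0.35, adjusted p = 0.864 in edgeR), without overlap. For PGK1 this became -0.23 without control replicate 1 and -0.86 with the GC content offset. PGAM1, the mutase, stayed between 215 and 253 CPM in all libraries, and PKM, the pyruvate kinase of most tumour cells, between 2527 and 3690 CPM. The 23 glycolysis genes together took 2.45% and 1.98% of all counts in controls and 2.07% and 1.89% with USP12, of which GAPDH alone took between 0.832% and 1.15%. All counts here include the mitochondrially encoded ones, which took 13.8% and 14.5% in controls and 25.3% and 23.2% with USP12. Their part in these shares was not tested.

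At the end of the pathway, LDHA, the lactate dehydrogenase subunit of glycolytic tissues, was at 619 and 628 CPM in controls and at 778 and 757 CPM with USP12. Its replicates were close, so that the groups did not overlap, but the log2 fold change was only 0.30 (SE 0.30, adjusted p = 0.939 in edgeR). With the GC content offset it was 0.07. LDHB, the heart-type subunit, was at 413 and 472 CPM against 502 and 447 CPM (0.10, SE 0.32, adjusted p = 0.980), or 0.01 without control replicate 1. Per kilobase, LDHA held 42.6% and 39.7% of the pair in controls and 43.4% and 45.6% with USP12. PDK1, which inhibits pyruvate dehydrogenase, was low, at 4.46 and 11.2 CPM in controls and 5.97 and 4.29 CPM with USP12.

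The shares of paralogues within a step were compared with an exact two-sided permutation test over the libraries, whose smallest possible p is 0.333 with 2 libraries per group, so none could pass 0.05. This was done for 11 steps, 10 with a pair of genes and that of the phosphofructokinases. CA9 held 22.4% and 2.58% of the carbonic anhydrase pair in controls and 1.42% and 0.701% with USP12 (exact p = 0.333). BNIP3 held 63.3% and 57.0% of the BNIP3 and BNIP3L level in controls and 54.7% and 45.4% with USP12 (exact p = 0.333). Against control replicate 2 alone, the difference in share was -1.52 percentage points for CA9, in place of -11.4, and -6.97 for BNIP3, in place of -10.1.

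Among the hypoxia response genes, HIF1A itself (ENSG00000100644), the oxygen-regulated alpha subunit, was at 221 and 345 CPM in controls and at 235 and 273 CPM with USP12. The USP12 libraries lay between the controls, with a log2 fold change of -0.16 (SE 0.37, adjusted p = 0.976 by the quasi-likelihood test) that was 0.23 against control replicate 1 alone and -0.44 against control replicate 2 alone. Regulation of this subunit by oxygen acts on the protein, which was not measured here. EGLN1, the main prolyl hydroxylase, was at 79.6 and 164 CPM in controls and at 107 and 106 CPM with USP12. EGLN3, the most inducible of these hydroxylases, was at 32.2 CPM in control replicate 1 and at 4.38 CPM in control replicate 2, beside 3.89 and 5.68 CPM with USP12. Its log2 fold change of -1.93 (SE 0.93, adjusted p = 0.761) became 0.13 without control replicate 1, so the value rested on that library.

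VEGFA, the angiogenic growth factor, was at 43.2 and 76.6 CPM in controls and at 27.0 and 41.3 CPM with USP12 (log2 fold change -0.81, SE 0.47, adjusted p = 0.838 in edgeR). Control replicate 2 was the higher control, and the log2 fold change was -1.16 against it alone and -0.31 against control replicate 1 alone. ADM, a vasodilator peptide gene, was at 69.5 and 33.1 CPM against 35.6 and 63.7 CPM, with complete overlap. The collagen prolyl hydroxylase subunit P4HA1 had tightly matched controls, at 28.3 and 27.7 CPM, and USP12 libraries at 14.1 and 18.4 CPM. Its log2 fold change was -0.78 (SE 0.43, adjusted p = 0.815 in edgeR) and hardly moved without either control, at -0.77. P4HA2 was at 78.9 and 23.7 CPM in controls and at 29.5 and 29.0 CPM with USP12. The mitophagy receptors BNIP3 and BNIP3L were at 79.0 and 43.1 CPM against 45.1 and 39.2 CPM, and at 46.8 and 33.2 CPM against 38.3 and 48.2 CPM, respectively, with log2 fold changes of -0.53 (SE 0.44, adjusted p = 0.914) and 0.11 (SE 0.41, adjusted p = 0.982). BNIP3 was at -0.87 with the GC content offset and at -0.03 without control replicate 1, where BNIP3L was at 0.38. The histone demethylase KDM3A was at 10.4 and 23.3 CPM in controls and at 18.9 and 17.2 CPM with USP12, and ANKRD37 was near the floor, with 15 and 3 counts in controls and 13 and 8 with USP12.

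The control libraries also differed from each other in these genes. In 13 of the 37 members (35.1%) control replicate 1 was over 2-fold above control replicate 2, beside 21.1% of all tested genes, and in 4 (10.8%) it was over 2-fold below, beside 23.6%. The 13 were PFKFB4, EGLN3, SLC16A3, ENO2, CA9, ANKRD37, NDRG1, P4HA2, ALDOC, SLC2A3, TPI1, ENO1 and ADM, and the 4 were PDK1, CA12, EGLN1 and KDM3A. The median log2 difference between the control libraries was 0.73 over the members and -0.01 over all tested genes. The USP12 libraries were over 2-fold apart in 1 member, CA9, and their median difference was 0.02. Both values with USP12 lay under both controls in 13 members (35.1%), beside 17% of all tested genes, and above both in 2 (5.41%), PFKFB3 and LDHA, beside 19.5%. In the remaining 22 members the groups overlapped. The 13 lower genes were HK2, HK1, GPI, PFKL, ALDOA, ALDOC, PGK1, SLC2A1, SLC16A3, CA9, VEGFA, NDRG1 and P4HA1.

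**Figure D3:**
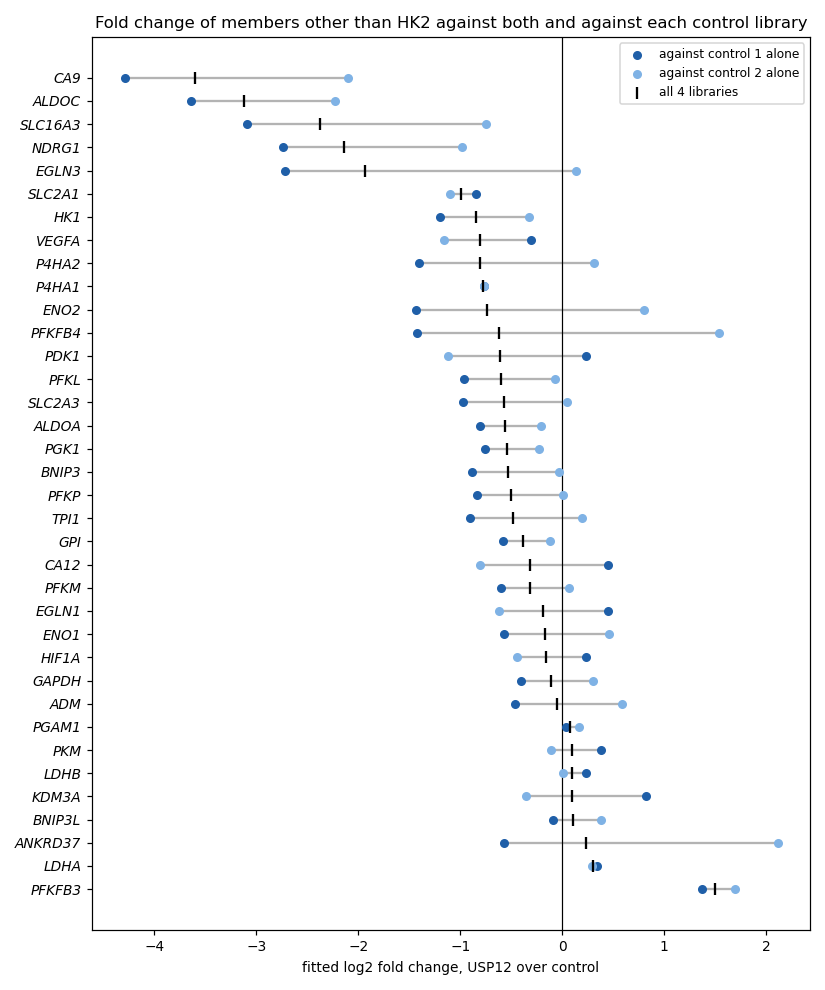
Fitted log2 fold change of USP12 over control cells for each member except HK2 (which was at 0 in both USP12 libraries), with both controls (black ticks), against control 1 alone (dark blue) and against control 2 alone (light blue). SLC2A1, P4HA1, LDHA and PFKFB3 have close points, whereas EGLN3, ENO2, P4HA2 and PFKFB4 span 0.

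Other genes of these pathways were taken from 4 lists, also chosen with earlier results of these data known. Of 10 genes of the HIF system 9 were tested and 1 met the criterion downwards (11.1%, against 4.41% of all genes), EPAS1, which encodes the second HIF alpha subunit. EPAS1 was at 155 and 148 CPM in controls and at 56.6 and 88.2 CPM with USP12, a log2 fold change of -1.07 (SE 0.39, unadjusted p = 0.0323, adjusted p = 0.564 in edgeR), and -1.03 without control replicate 1. ARNT, the partner subunit, was at 44.3 and 47.6 CPM against 57.5 and 53.4 CPM, and its paralogue ARNT2 at 11.9 and 51.8 CPM against 85.1 and 98.0 CPM (log2 fold change 1.52, SE 0.69, adjusted p = 0.730). Against control replicate 2 alone ARNT2 stood at 0.82, and against control replicate 1 alone at 2.97. VHL, which marks the alpha subunits for degradation, was at 34.3 and 28.9 CPM against 26.3 and 18.2 CPM. The median of the tested genes of this list was -0.10.

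Of 41 other hypoxia targets 37 were tested. By the criterion 5 were lower (13.5%) and 1 higher (2.7%), against the same 4.41% and 2.92% of all genes, and the list median was -0.20. The 5 were TXNIP, STC1, DDIT4, ANGPTL4 and P4HB. Fits with 1 control library left hold no spread between controls, so genes meeting the criterion are not counted for them. Without control replicate 1, log2 fold changes were -1.44 for STC1, -1.23 for TFRC, 1.26 for IGFBP3, 1.21 for HMOX1 and 1.91 for LOXL2. Without control replicate 2, the same genes were at -2.04, 0.59, 1.00, 0.57 and 0.14, in that order. TXNIP, whose product restrains glucose uptake, had 828 and 2047 counts in controls and 85 and 62 with USP12. The log2 fold change was -4.08 (SE 0.53, adjusted p = 0.154 by the quasi-likelihood test), -4.44 without control replicate 1 and -3.56 without control replicate 2. STC1, a secreted glycoprotein hormone, was at 68.9 and 44.8 CPM against 16.4 and 16.6 CPM (-1.79, SE 0.43, adjusted p = 0.311), and DDIT4, an inhibitor of mTORC1, at 328 and 233 CPM against 117 and 124 CPM (-1.22, SE 0.36, adjusted p = 0.418), which was -0.95 without control replicate 1. P4HB, a protein disulfide isomerase, went from -1.05 to -0.64 in the same way. ANGPTL4, also lower by the criterion, was at 178 and 12.6 CPM in controls and at 7.34 and 8.87 CPM with USP12, a log2 fold change of -3.55 that became -0.63 without control replicate 1. The higher gene was IGFBP3, a carrier of insulin-like growth factors, at 441 and 361 CPM in controls and 923 and 800 CPM with USP12 (log2 fold change 1.10, SE 0.32, adjusted p = 0.413).

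Of 35 other genes of glycolysis and pyruvate handling 24 were tested, 3 were higher by the criterion (12.5%, against 2.92% of all genes) and 0 lower, with a list median of -0.03. Without control replicate 1, the log2 fold changes of MPC1, PDP2 and PFKFB2 were -1.40, -1.65 and -1.85, and that of PDK2 was 1.26. PDK4, a starvation-induced inhibitor of pyruvate dehydrogenase, was at 65.9 and 132 CPM in controls and at 399 and 361 CPM with USP12 (log2 fold change 1.94, SE 0.44, adjusted p = 0.298 by the quasi-likelihood test), and at 1.53 without control replicate 1. SLC16A7, which encodes the high-affinity monocarboxylate transporter MCT2, had 26 and 12 counts in controls and 88 and 139 with USP12, a log2 fold change of 2.61 (SE 0.74, adjusted p = 0.382). SLC2A12, a further glucose transporter, was at 4.39 and 2.60 CPM against 9.57 and 14.1 CPM (1.76, SE 0.56, adjusted p = 0.459). Of 12 genes of gluconeogenesis and glycogen metabolism 9 were tested and 2 were lower by the criterion (22.2%, against 4.41% of all genes), with a list median of -0.71. PYGB, a glycogen phosphorylase, was at 842 and 952 CPM in controls and at 373 and 431 CPM with USP12 (-1.16, SE 0.32, adjusted p = 0.359). PCK2, the mitochondrial phosphoenolpyruvate carboxykinase, was at 118 and 144 CPM against 48.8 and 57.1 CPM (-1.30, SE 0.36, adjusted p = 0.372). Without control replicate 1, PYGB was at -1.24 and PCK2 at -1.44.

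**Figure D4:**
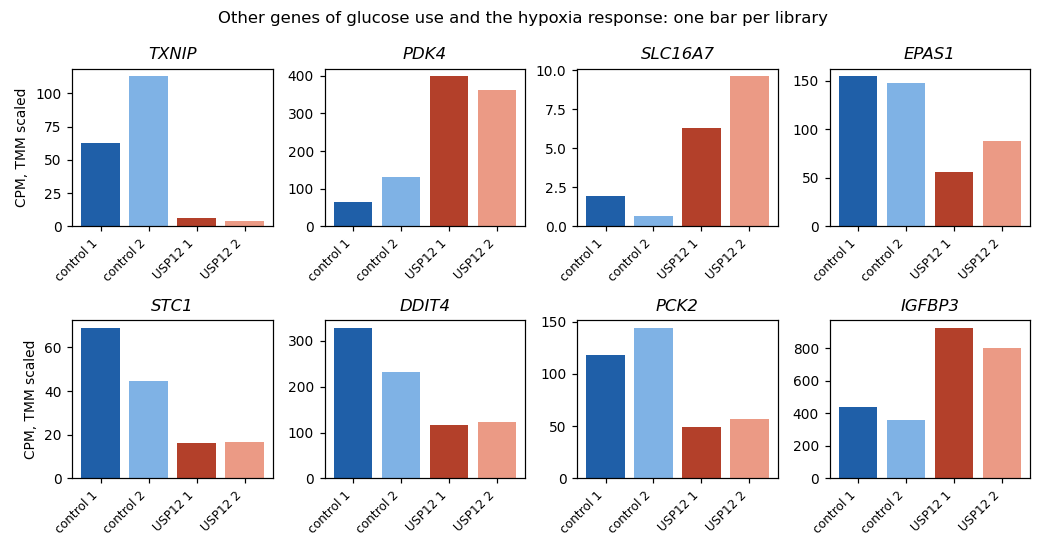
Level in CPM, one bar per library and one panel per gene with an axis from 0, for 8 genes of glucose use and the hypoxia response outside the 37 members. TXNIP had a low bar in both USP12 libraries (6.12 and 4.29 CPM), PDK4 stood at 399 and 361 CPM there, and DDIT4 at 117 and 124 CPM, below both controls.

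Some counts are uncertain, since genes overlap and whether strand was used in counting is not stated. Exons of another gene lie on the same strand within those of SLC16A3, NDRG1, PFKFB4, PGK1, GPI, ALDOA, LDHB, PFKP, EGLN1 and HIF1A, and on the opposite strand within those of ALDOC, CA9, VEGFA and SLC2A1, among others. Reads of GAPDH, ENO1, PKM, LDHA and other glycolytic enzymes can also match their processed pseudogenes, and the authors counted uniquely mapped fragments only.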

How the data were processed

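The authors prepared stranded mRNA libraries, trimmed adaptors and removed ribosomal RNA reads with Seqtk, aligned the reads to GRCh38 with HISAT2 2.0.4 and deposited raw counts of uniquely mapped fragments per gene from StringTie 1.3.0. The annotation release is not given in the sources used here. From the counts, genes were filtered with filterByExpr (15222 of 50868 kept) and compared, USP12 against control, with the quasi-likelihood test of edgeR 4.0.16 under R 4.3.3 (TMM factors, Benjamini-Hochberg adjustment across all genes tested). Standard errors are approximate, taken as |log2 fold change| / √F. Exon lengths, GC content and positions came from GENCODE release 44 (99.2% of tested genes matched), and levels per kilobase are CPM over the union of exons. The test was tried on simulated counts. Full statistics were given for members with an unadjusted p of 0.05 or less, HIF1A, steps with separated paralogue shares and the 6 largest fold changes, and from the other lists for up to 3 genes per direction. Statistics of other members, ANGPTL4, P4HB, TFRC, ARNT, ARNT2 and VHL, and the values of list genes without a control library, were added after the data were seen. The members and lists were chosen with earlier results of these data known. The alternatives were another scaling, other filters, DESeq2 1.42.0, the edgeR exact test, a replicate block, a GC content offset and leaving out each library.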

Additional observations from a re-analysis of the deposited data

How the results depend on the processing

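The count of members meeting the criterion (5 lower and 1 higher) stayed within 1.5 times under the alternatives that kept all libraries. With a library left out, 1 group held 1 library and the p-values lacked its spread, so members passing are not counted for those fits. After adjustment, the count of 0 members (7 at an unadjusted p under 0.05) became, with no low-count filter, 5 lower and 1 higher, 5 lower with the DESeq2 Wald test, 4 lower and 1 higher with the edgeR exact test, 5 lower with the replicate block and 3 lower with the replicate block and GC content offset, and between 0 and 18 lower and 0 and 1 higher with a library left out. Of all genes, 1.46%, 1.79%, 1.72%, 1.65% and 0.723% were called lower in those 5 fits that kept all libraries. Without control replicate 1, 6 members were lower beside 5.74% of all genes. The 18 were without control replicate 2, where 16.3% of all genes were lower and 15.9% higher. In the fits with no filter, with the replicate block and without either USP12 library the prior degrees of freedom were infinite, against 4.15, so a gene's own spread did not enter. The groups share replicate numbers, but same-numbered libraries deviated together only weakly (correlation across genes 0.152), and nothing states that they are paired. With at least 10 counts in every library, HK2 and ANKRD37 were not tested. Of 15222 genes, 404 were called with the block and 406 with DESeq2.

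The median over the members was between -0.76 and -0.07 with a library left out, and that of the glycolysis genes between -0.81 and 0.01. Of 37 members, 17 kept their sign throughout. With the GC content offset, the sign turned for GAPDH (0.05), LDHB (-0.14), ADM (0.12), BNIP3L (-0.10), ANKRD37 (-0.05) and KDM3A (-0.04). With the replicate block PFKFB4 was at 0.01, and with block and offset together PFKFB4 was at 0.13, GAPDH at 0.05, LDHB at -0.12, ADM at 0.08 and KDM3A at -0.02. The cause was not tested. With a library left out, the fold changes that changed sign lay, for HIF1A between -0.44 and 0.23, SLC2A3 between -0.97 and 0.05, PFKM between -0.60 and 0.07, PFKP between -0.84 and 0.01 and PFKFB4 between -1.42 and 1.54, for TPI1 between -0.90 and 0.19, GAPDH between -0.40 and 0.30, ENO1 between -0.57 and 0.46, ENO2 between -1.43 and 0.80 and PKM between -0.12 and 0.38. They lay, for PDK1 between -1.12 and 0.23, CA12 between -0.81 and 0.45, ADM between -0.52 and 0.59, BNIP3L between -0.09 and 0.38 and EGLN1 between -0.62 and 0.45, for EGLN3 between -2.72 and 0.13, P4HA2 between -1.40 and 0.31, ANKRD37 between -0.57 and 2.11 and KDM3A between -0.36 and 0.82.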
